A study of Mus musculus with 9 samples.

Results

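Genes that sense DNA damage and repair it were followed in LSK cells, the bone marrow cells that lack lineage markers and carry Sca1 and cKit, among which are the hematopoietic stem cells and multipotent progenitors. The set was given as 42 gene symbols. Each gene was read from its brightest probe set, the one with the highest mean over the 9 arrays among probe sets annotated to 1 gene only. Such a probe set was found for 41 of the 42 symbols, of 18193 genes that had one. The exception was Dclre1c, the nuclease that opens hairpin ends, which was not analysed here. Of the 41, 40 had a mean above a filter on low signal (4.03 on the log2 scale) and were tested with all other genes above it, 12398 in all. Lig4, the ligase of end joining, lay below it, at 3.49 ± 0.80, 3.21 ± 0.32 and 3.20 ± 0.65 in GFP-positive, GFP-negative and control cells (SD, n = 3 each). By role the 41 genes fell into break sensing and checkpoint (8 genes), homologous recombination (7), end joining (6, with Lig4), the Fanconi anaemia pathway (6), nucleotide excision repair (7), and base excision and mismatch repair (7).

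The cells came from C57BL/6 mice that had received 10 Gy of irradiation and a graft, and were sorted 8 weeks after it. The first group was the GFP-positive LSK fraction of recipients of donor cells that had been transduced with a retroviral vector for what the labels call dnMPL, and the second was the GFP-negative fraction from the same kind of recipient. The control group was LSK cells of recipients of wild type cells. There were 3 arrays a group, with marrow of 2 to 5 mice pooled for each. Irradiation and transplantation were common to all groups. The labels name neither the promoter of the vector nor any vector in the control cells, and give no link between mice of equal replicate number. No label describes the pools of a group further than as separate samples, so p-values measure the spread between these samples. Levels are log2 RMA values of a probe set, which depend on its probes and do not rank genes by amount, and differences are log2 fold changes from limma.

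Breaks through both strands are sealed by end joining, which ligates the ends directly, or by homologous recombination, which copies the sister chromatid after replication. Excision repair removes bulky lesions, damaged bases or mismatches from 1 strand and fills the gap, and loss of the Fanconi anaemia pathway, which repairs crosslinks between strands, leads to bone marrow failure.

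Many replication and recombination genes are known targets of E2F factors, which act at the start of S phase. Promoters were therefore searched for the E2F letters TTTGGCGC, TTTCCCGC, TTTGCCGC and TTTCGCGC, for CCAAT and for the GC box GGGCGG, each on both strands. TATAAA was searched in the same way. RefSeq windows of GRCm38.p6, from 250 bases before to 50 after a start site, were held for 33 of the 41 genes and numbered 36. E2F letters stood in 8 of the 36 windows (22.2%), against 2.26% of all 32851 windows of the table and 3.85% of those of genes tested here. The 7 genes were Bard1, Brca2 and Rad51c of homologous recombination, Chek2, Fancg, Msh6 and Xrcc6. CCAAT was found in 50% of the windows of repair genes, against 37.0% for genes tested, and the GC box in 69.4%, against 59.6%. In 16 windows of G1/S cycling genes the shares with E2F letters, CCAAT and the GC box were higher still, at 43.75%, 75% and 81.25%. TATAAA, which is not marked below, stood in 5.56% of the windows of repair genes, against 7.59% for genes tested. It stood in 0% of the G1/S windows. A match describes letters and is not a site, and E2F letters and GC boxes can share bases, as in the second Rad51c window. Printed here are 3 genes with E2F letters and different roles (Brca2, Fancg and Xrcc6), and Xrcc5, whose protein pairs with that of Xrcc6 but whose window held neither E2F letters nor a GC box. Capitals mark E2F letters, CCAAT and GC boxes on either strand:
Brca2 (chr5:150522371-150522670, plus strand): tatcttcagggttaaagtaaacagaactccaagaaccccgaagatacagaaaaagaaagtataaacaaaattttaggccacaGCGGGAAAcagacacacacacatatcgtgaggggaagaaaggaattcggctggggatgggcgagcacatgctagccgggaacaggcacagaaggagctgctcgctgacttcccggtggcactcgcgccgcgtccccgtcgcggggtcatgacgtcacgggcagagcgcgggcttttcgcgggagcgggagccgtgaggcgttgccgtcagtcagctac
Fancg (chr4:43010252-43010551, minus strand): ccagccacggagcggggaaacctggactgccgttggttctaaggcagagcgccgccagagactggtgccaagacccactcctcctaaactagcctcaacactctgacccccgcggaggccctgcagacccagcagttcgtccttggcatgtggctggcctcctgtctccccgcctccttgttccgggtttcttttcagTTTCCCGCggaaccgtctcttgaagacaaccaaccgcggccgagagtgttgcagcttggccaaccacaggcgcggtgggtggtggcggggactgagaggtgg
Xrcc6 (chr15:82016119-82016418, plus strand): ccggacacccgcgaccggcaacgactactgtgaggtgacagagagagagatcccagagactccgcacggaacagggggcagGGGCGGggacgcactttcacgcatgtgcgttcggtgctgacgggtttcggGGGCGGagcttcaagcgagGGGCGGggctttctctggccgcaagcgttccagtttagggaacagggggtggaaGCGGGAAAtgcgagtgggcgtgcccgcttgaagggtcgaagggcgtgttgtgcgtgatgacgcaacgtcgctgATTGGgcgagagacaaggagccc
Xrcc5 (chr1:72307171-72307470, plus strand): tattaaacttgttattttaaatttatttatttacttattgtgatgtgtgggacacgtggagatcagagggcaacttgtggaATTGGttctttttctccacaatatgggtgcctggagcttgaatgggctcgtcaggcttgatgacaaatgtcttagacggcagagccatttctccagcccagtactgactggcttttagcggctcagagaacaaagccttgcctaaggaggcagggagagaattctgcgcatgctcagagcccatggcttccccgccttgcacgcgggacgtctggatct

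Array medians ran from 4.52 to 4.64. The third control array and the second GFP-positive array differed from the rest: limma weighted them at 0.365 and 0.369, where the remaining arrays had weights of at least 0.809, and the Gapdh 3′ probe set exceeded the 5′ one by 3.87 and 3.22, where the remaining arrays had 2.47 to 2.89. They also gave the highest or lowest of the 9 values often. GFP-positive 2 did so in 18 of the 40 repair genes (45.0%, against 37.1% of all genes tested) and control 3 in 16 (40%, against 36.0%). Of the gate markers, Kit stood at 8.17, 6.38 and 8.17 on the GFP-positive arrays, so its low value fell on GFP-positive 2. It was at 7.92 to 8.22 in GFP-negative cells and 8.08 to 8.73 in controls. Ly6a, which encodes Sca1, was not analysed here. Markers of other cells also differed between the groups, though none of these genes passed the limma threshold. The mean level of 10 granulocyte genes, 10 of 10 of them higher in either fraction than in controls, was 10.74 to 11.66 in GFP-positive, 9.95 to 11.25 in GFP-negative and 7.18 to 9.59 in control arrays. That of 8 erythroid genes, 6 of 8 of them higher in GFP-positive and 5 of 8 in GFP-negative cells, was 7.50 to 7.70, 7.23 to 7.38 and 5.90 to 6.10, and that of 6 stem cell genes, 0 of 6 of them higher, was 5.64 to 6.10, 5.59 to 6.35 and 7.15 to 7.58. Of 4 monocyte genes 3 were higher in either fraction (median differences 1.85 and 1.24), and of 6 B cell genes 5 were higher in GFP-positive and 4 in GFP-negative cells (0.93 and 0.60). Cycling genes were lowest on control 3, where the median distance from a gene's own mean was -0.73 for 17 G1/S genes and -1.03 for 14 G2/M genes, against -0.24 to 0.27 and -0.026 to 0.35 on the other arrays. Mki67, a proliferation marker, ran from 12.04 to 12.49 in GFP-positive, 11.96 to 12.26 in GFP-negative and 12.21 to 12.41 in control arrays, and Mcm2, of the replicative helicase, from 8.17 to 8.97, 8.66 to 9.04 and 6.51 to 8.66. The part of these markers in the repair gene values was not tested, and in bulk samples fewer cells of a type and less RNA per cell cannot be told apart.

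**Figure D1:**
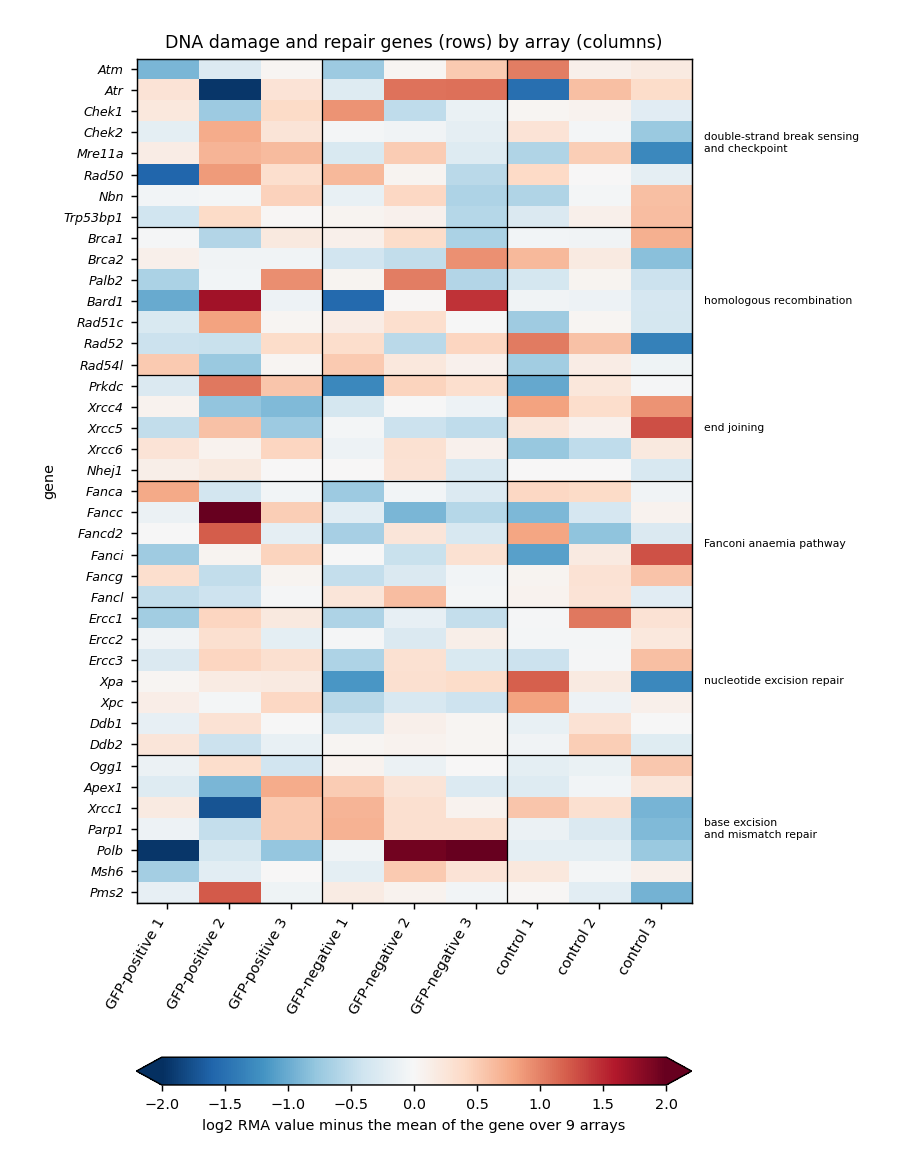
Heat map of the 40 tested repair genes (rows, grouped by role) on the 9 arrays (columns: GFP-positive, GFP-negative and control); colour is the log2 RMA value minus the gene's mean over the 9 arrays, limited to -2 and 2. GFP-positive 2 and control 3 hold the highest or lowest value in 18 and 16 of the 40 genes.

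No repair gene passed the test in any comparison. In GFP-positive cells against controls, 0 of 40 passed at a limma adjusted p under 0.05 (smallest 0.524), as did 0% of all genes, and 1 of 40 had an unadjusted p under 0.05, against 6.49% of all genes. In GFP-negative cells against controls 0 of 40 passed (smallest limma adjusted p 0.832, 0% of all genes), and 4 had an unadjusted p under 0.05, against 5.57%. Between GFP-positive and GFP-negative cells 0 passed (smallest limma adjusted p 0.9998, 0% of all genes), and 2 had an unadjusted p under 0.05, Fancc higher (against 1.28%) and Polb lower (against 1.27%), together 2.55% of all genes. Both comparisons with controls use the same 3 control arrays, and the comparison of the fractions uses the GFP-positive and GFP-negative arrays again.

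By point estimate 16 of the 40 genes were higher and 24 lower in GFP-positive cells than in controls, 19 higher and 21 lower in GFP-negative cells, and 21 higher and 19 lower between GFP-positive and GFP-negative cells. Over all genes 47.2%, 46.5% and 51.8% were higher and 52.8%, 53.5% and 48.2% lower. The median difference of the 40 genes was -0.061, -0.013 and 0.055 in these comparisons, where that of all genes was -0.028, -0.038 and 0.015. None of these medians kept its sign when single arrays were left out. The first was 0.0475 without control 2 and 0.00701 without GFP-positive 2. The second was 0.144, 0.0737 and 0.0092 without control 1, 2 and 3, and 0.0221 without GFP-negative 1. The third was -0.0137 without GFP-negative 3 and -0.00367 without GFP-positive 2.

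The precision was that of 3 arrays a group, with a median SE of 0.39 for a repair gene's difference. The 95% interval lay within -1 to 1, less than a 2-fold change either way, for 12 of 40 repair genes in GFP-positive cells against controls (34.5% of all genes), for 9 in GFP-negative cells against controls (31.9%) and for 10 between the fractions (36.3%). Every other interval held a 2-fold difference, except that of Polb between the fractions, which lay wholly beyond it. The median size of a difference, without its sign, was 0.32, 0.25 and 0.28 for the repair genes and 0.28, 0.29 and 0.25 for all genes.

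**Figure D2:**
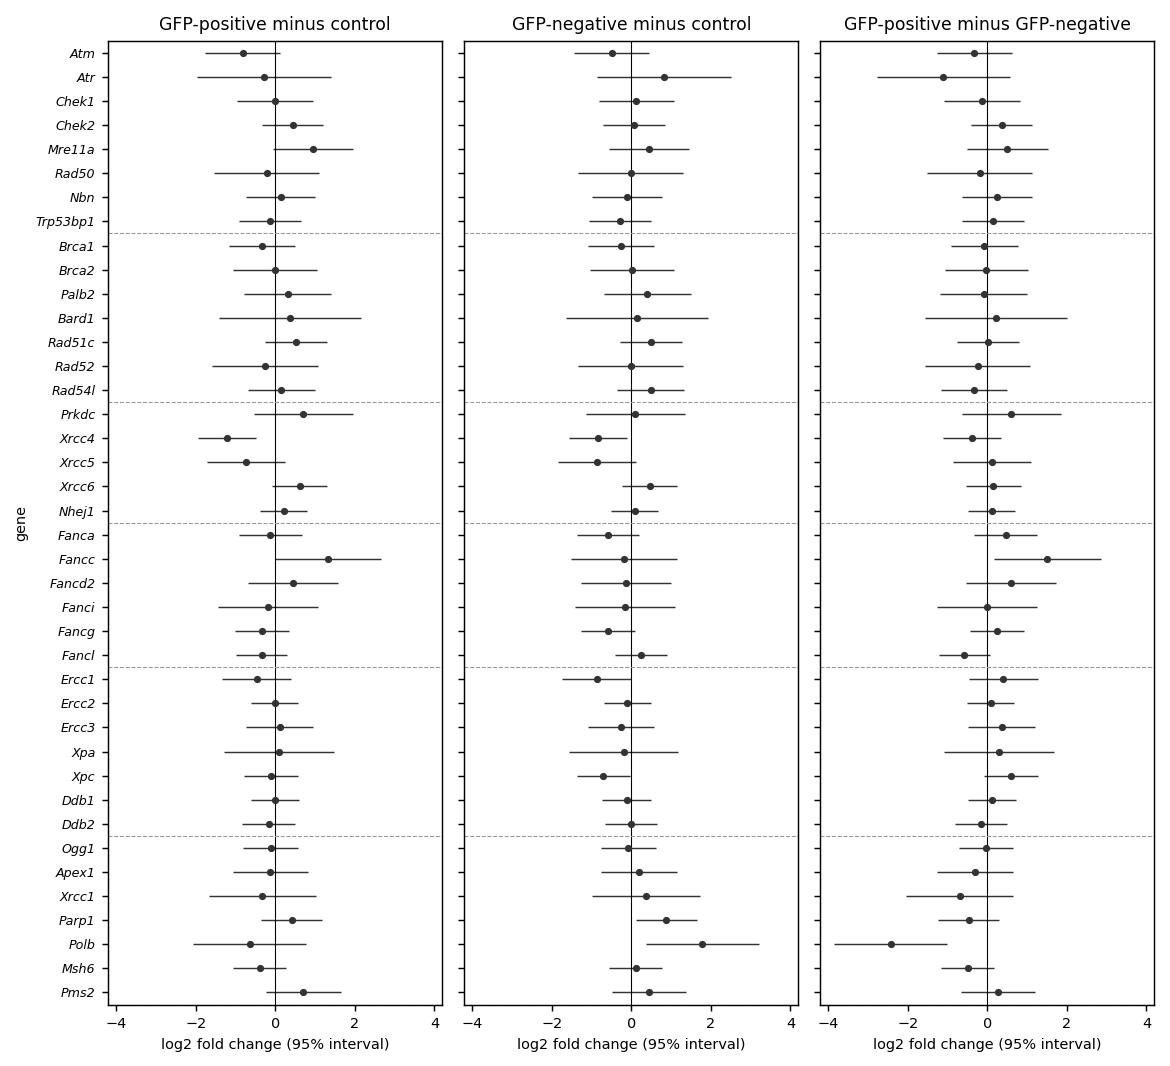
Log2 fold changes (points) and 95% limma intervals (bars) of the 40 tested repair genes in GFP-positive against control, GFP-negative against control and GFP-positive against GFP-negative cells, ordered by role. Intervals that clear 0 belong to Xrcc4 in the first, to Polb, Xrcc4, Parp1 and Xpc in the second and to Polb and Fancc in the third comparison.

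Among end joining genes, the smallest p in GFP-positive cells against controls belonged to Xrcc4, which holds the ligase at the break. Xrcc4 stood at 5.36, 4.48 and 4.40 on the GFP-positive arrays, at 4.93, 5.28 and 5.18 on the GFP-negative arrays and at 6.08, 5.64 and 6.18 on the control arrays. Both GFP fractions lay wholly below the controls. The difference was -1.22 ± 0.33 (SE; 95% interval -1.95 to -0.49) for GFP-positive cells (limma adjusted p = 0.524) and -0.84 ± 0.33 for GFP-negative cells (limma adjusted p = 0.862). Without control 3 and GFP-positive 2 these differences were -0.98 and -0.73. A second, dimmer Xrcc4 probe set (mean 4.10, just above the filter) differed by 0.56 and -0.31, so in GFP-positive cells the probe sets of the gene had opposite signs. The second set was at 4.91, 5.61 and 3.20 on the GFP-positive arrays and at 4.92, 4.06 and 3.08 on the control arrays. Its highest value fell on GFP-positive 2 and its lowest on control 3, so the 0.56 rested on those arrays.

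The subunits of Ku, the ring that first binds broken ends, differed from controls in opposite directions by point estimate. Xrcc5 was at 5.48, 6.56 and 5.24 on the GFP-positive arrays, at 5.94, 5.53 and 5.45 on the GFP-negative arrays and at 6.21, 6.05 and 7.26 on the control arrays. The GFP-negative arrays lay below all controls, GFP-positive 2 overlapped them, and control 3 had the highest value. Xrcc6 was at 8.80, 8.61 and 8.96 on the GFP-positive arrays, at 8.44, 8.84 and 8.63 on the GFP-negative arrays and at 7.77, 8.03 and 8.72 on the control arrays. Here control 3 overlapped both fractions, and the other controls lay below them. Xrcc5 differed from controls by -0.75 ± 0.44 in GFP-positive and -0.87 ± 0.44 in GFP-negative cells (limma adjusted p = 0.838 and 0.893), and Xrcc6 by 0.62 ± 0.31 and 0.46 ± 0.31 (limma adjusted p = 0.789 and 0.92). Without control 3 the Xrcc5 difference was -0.37 in GFP-positive and -0.49 in GFP-negative cells, and without that array and GFP-positive 2 the GFP-positive differences were -0.77 for Xrcc5 and 0.98 for Xrcc6. In GFP-negative cells the Xrcc6 difference ran from 0.26 without control 1 to 0.735 without control 3. Xrcc5 had 1 probe set, and the second probe set of Xrcc6 differed by 0.76 and -0.0051 in GFP-positive and GFP-negative cells. This second set was at 4.23, 6.56 and 3.60 on the GFP-positive arrays and at 3.95, 3.76 and 4.40 on the control arrays. The 0.76 therefore rested on GFP-positive 2. Of the promoter windows printed above, that of Xrcc6 had 64.3% G and C and that of Xrcc5 48.0%.

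Prkdc, the catalytic subunit of DNA-PK, was at 5.59, 6.94 and 6.43 on the GFP-positive arrays, at 4.59, 6.33 and 6.23 on the GFP-negative arrays and at 4.87, 6.11 and 5.87 on the control arrays, and all groups overlapped. It differed from controls by 0.71 ± 0.56 in GFP-positive and 0.10 ± 0.56 in GFP-negative cells. Nhej1, a filament-forming partner of Xrcc4, was at 5.67 ± 0.091, 5.55 ± 0.31 and 5.46 ± 0.19 in GFP-positive, GFP-negative and control cells (SD, n = 3 each). The 5 tested end joining genes had a median difference of 0.21 in GFP-positive and 0.091 in GFP-negative cells against controls, with 3 of 5 higher in each. The second median was -0.271 without control 1, -0.206 without GFP-negative 2 and -0.153 without GFP-negative 3.

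**Figure D3:**
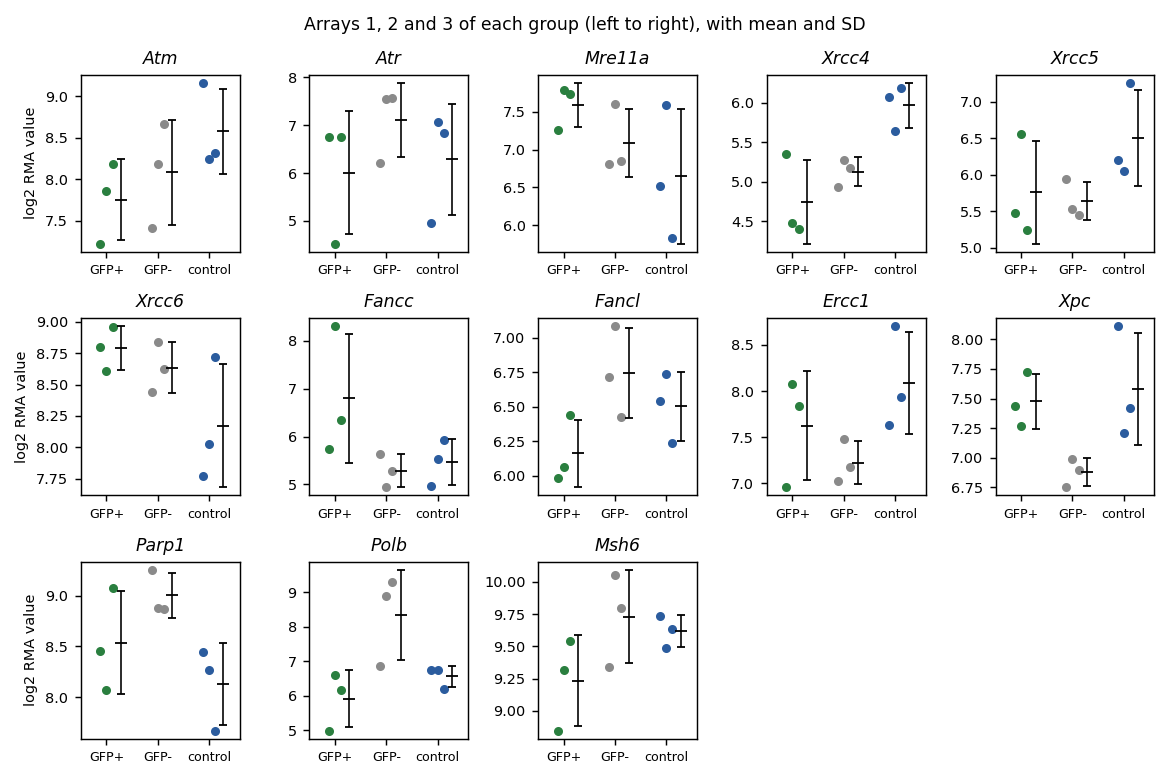
Log2 RMA values of the 13 repair genes with the smallest p in any comparison, with the GFP-positive, GFP-negative and control arrays as points and the mean ± SD beside them (n = 3); vertical scales differ between genes and do not start at 0. Xrcc4 lies below the controls in both fractions, and Polb reaches 8.88 and 9.30 on GFP-negative 2 and 3.

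Of the 7 homologous recombination genes 4 were higher and 3 lower in GFP-positive cells than in controls (median 0.15, and -0.0679 without GFP-positive 1), and 5 were higher and 2 lower in GFP-negative cells (median 0.14, and 0.363 without GFP-negative 1). Rad51c, a paralog of the recombinase, stood at 5.01, 6.12 and 5.36 on the GFP-positive arrays, at 5.45, 5.65 and 5.31 on the GFP-negative arrays and at 4.60, 5.36 and 4.95 on the control arrays, and the groups overlapped. It differed from controls by 0.52 ± 0.35 and 0.50 ± 0.35 in GFP-positive and GFP-negative cells (limma adjusted p = 0.88 and 0.921). Between GFP-positive and GFP-negative cells the median size of the difference, without its sign, was 0.088 with a median SE of 0.47, and 2 of 7 intervals lay within -1 to 1. Bard1, the partner of Brca1, varied most within the fractions. It was at 5.35, 8.03 and 6.25 on the GFP-positive arrays, at 4.79, 6.37 and 7.79 on the GFP-negative arrays and at 6.28, 6.25 and 6.02 on the control arrays.

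Brca1, which promotes the resection of ends, was at 7.27 ± 0.40, 7.35 ± 0.52 and 7.60 ± 0.45 in GFP-positive, GFP-negative and control cells (SD, n = 3 each). Its brightest probe set differed from controls by -0.33 ± 0.37 in GFP-positive cells, and its other probe sets by 1.11 and 1.36, with the opposite sign. Rad54l, a motor protein that helps strand exchange, was at 9.18 ± 0.64, 9.52 ± 0.22 and 9.03 ± 0.43, and here the probe sets had the same sign: the brightest differed from controls by 0.49 ± 0.37 in GFP-negative cells and the others by 0.61, 0.48 and 0.35. Brca2, which loads the recombinase, was at 6.67 ± 0.097, 6.70 ± 0.78 and 6.68 ± 0.76, and differed by -0.012 ± 0.47 and 0.016 ± 0.47. Palb2, which bridges Brca1 and Brca2, was at 6.25 ± 0.79, 6.34 ± 0.81 and 5.93 ± 0.26, and the annealing protein Rad52 at 7.19 ± 0.46, 7.43 ± 0.54 and 7.45 ± 1.27. The groups overlapped in each of these genes.

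Break sensing and checkpoint genes had a median difference of -0.076 in GFP-positive and 0.028 in GFP-negative cells against controls, with 3 and 4 of 8 higher. Atm, the kinase that answers breaks through both strands, stood at 7.22, 7.86 and 8.18 on the GFP-positive arrays, at 7.41, 8.18 and 8.66 on the GFP-negative arrays and at 9.17, 8.25 and 8.32 on the control arrays. The GFP-positive arrays lay below all controls. Atm and Xrcc4 were the 2 of 40 repair genes whose GFP-positive and control arrays did not overlap, both lower, against 8.61% of all genes (4.36% higher and 4.26% lower). Atm differed by -0.82 ± 0.42 in GFP-positive cells (limma adjusted p = 0.801; -0.53 without control 1), and its second probe set by 0.20. Mre11a, the nuclease of the break-sensing complex, was at 7.26, 7.79 and 7.74 on the GFP-positive arrays, at 6.81, 7.61 and 6.85 on the GFP-negative arrays and at 6.51, 7.59 and 5.83 on the control arrays, and control 2 overlapped both fractions. It differed by 0.95 ± 0.45 in GFP-positive cells (limma adjusted p = 0.773; 0.54 without control 3), and its second probe set by -0.47.

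The partners of Mre11a in that complex had group means that differed by less than the SD within any group. Rad50 was at 7.80 ± 1.29, 7.99 ± 0.60 and 8.01 ± 0.29 and Nbn at 6.72 ± 0.29, 6.48 ± 0.52 and 6.58 ± 0.60 in GFP-positive, GFP-negative and control cells (SD, n = 3 each). Atr, the kinase of replication stress, was at 6.75, 4.52 and 6.75 on the GFP-positive arrays, at 6.21, 7.55 and 7.57 on the GFP-negative arrays and at 4.96, 7.07 and 6.84 on the control arrays. It was low on GFP-positive 2 and control 1, and the groups overlapped. Its difference between GFP-positive and GFP-negative cells was -1.10 ± 0.75, and -0.36 without GFP-positive 2. Of the effector kinases, Chek1 was at 7.55 ± 0.60, 7.68 ± 0.73 and 7.56 ± 0.16 and Chek2 at 6.71 ± 0.47, 6.35 ± 0.073 and 6.27 ± 0.52 in the same order of groups. Trp53bp1, which protects ends from resection, was at 11.48 ± 0.39, 11.33 ± 0.37 and 11.62 ± 0.45.

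Of 6 Fanconi anaemia genes 4 were lower than controls by point estimate in GFP-positive cells and 5 in GFP-negative cells, with medians of -0.16 and -0.18. Other probe sets above the filter did not all share these signs. In GFP-negative cells against controls they differed by 0.83 for Fanca, 0.46 for Fancd2 and 0.17 for Fanci. Those of Fancc differed by 0.12 and -0.31, that of Fancg by -0.075 and that of Fancl by -0.15. Fancg, of the core complex, stood at 9.99, 9.17 and 9.71 on the GFP-positive arrays, at 9.18, 9.37 and 9.59 on the GFP-negative arrays and at 9.71, 9.94 and 10.23 on the control arrays. The GFP-negative arrays lay below the controls and the GFP-positive arrays overlapped them. It differed by -0.34 ± 0.30 and -0.58 ± 0.30 in GFP-positive and GFP-negative cells, and its second probe set by -0.26 and -0.075. Fancc, another core member, was at 5.74, 8.31 and 6.34 on the GFP-positive arrays, at 5.64, 4.94 and 5.29 on the GFP-negative arrays and at 4.96, 5.52 and 5.93 on the control arrays. GFP-positive 2 was the highest of all. The difference from controls was 1.33 ± 0.60 in GFP-positive cells (limma adjusted p = 0.768), and 0.57 without GFP-positive 2, while its other probe sets differed by 0.19 and -0.13. Between GFP-positive and GFP-negative cells Fancc differed by 1.51 ± 0.60 (limma adjusted p = 0.9998), and by 0.755 without GFP-positive 2. Its other probe sets differed there by 0.067 and 0.18.

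Fancl, the ubiquitin ligase of the core complex, was at 5.98, 6.06 and 6.44 on the GFP-positive arrays, at 6.72, 7.09 and 6.43 on the GFP-negative arrays and at 6.54, 6.74 and 6.24 on the control arrays, and the groups overlapped. It differed between GFP-positive and GFP-negative cells by -0.58 ± 0.29 and its second probe set by 1.12. That second set was at 4.72, 8.36 and 4.57 on the GFP-positive arrays and at 4.72, 4.86 and 4.72 on the GFP-negative arrays. Its difference therefore rested on GFP-positive 2. The substrates of the ligase, Fancd2 and Fanci, were at 6.50 ± 0.76, 5.91 ± 0.46 and 6.05 ± 0.81 and at 6.75 ± 0.59, 6.77 ± 0.37 and 6.94 ± 1.18 in GFP-positive, GFP-negative and control cells (SD, n = 3 each). Fanca, also of the core complex, differed from controls by -0.13 ± 0.35 in GFP-positive and -0.59 ± 0.35 in GFP-negative cells, with a mean over the 9 arrays of 6.44. Its second probe set had a mean of 4.53 and differed by 0.25 and 0.83, with the opposite sign.

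In GFP-negative cells against controls all 7 nucleotide excision repair genes were lower by point estimate, with a median of -0.19, whereas 6 of 7 base excision and mismatch repair genes were higher, with a median of 0.37. None of the 14 passed the test, and over the 14 the median was -0.045. The signs depended in part on the probe set. Other nucleotide excision probe sets above the filter differed by 0.79 for Xpa and 0.44 for Ercc2, and by -0.63 for Ercc1 and -0.56 for Ddb2. In the other branch they differed by -0.29 for Pms2, 0.036 for Ogg1, and 0.21 and 0.047 for Apex1. Those of Polb and Parp1 are given below. Other genes of these branches, from a wider list of repair genes, did not show opposite signs: 6 of 13 nucleotide excision genes and 10 of 22 base excision and mismatch genes were higher, with medians of -0.13 and -0.11. In GFP-positive cells against controls 5 of 7 genes were lower in each branch, with medians of -0.019 and -0.12. Single arrays stood out in both. The median distance of nucleotide excision genes from their own means was -0.56 on GFP-negative 1 and -0.065 to 0.29 on the other arrays, and that of base excision and mismatch genes was -0.74 on control 3 and -0.35 to 0.32 on the other arrays.

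Xpc, which recognises bulky lesions, and Ercc1, a subunit of the nuclease that cuts beside them, had the smallest p of the nucleotide branch. Xpc was at 7.44, 7.27 and 7.72 on the GFP-positive arrays, at 6.75, 6.99 and 6.89 on the GFP-negative arrays and at 8.11, 7.21 and 7.42 on the control arrays. The GFP-negative arrays lay below all others. The difference from controls was -0.70 ± 0.30 in GFP-negative cells (limma adjusted p = 0.876; -0.43 without control 1) and -0.10 ± 0.30 in GFP-positive cells. Ercc1 was at 6.96, 8.08 and 7.84 on the GFP-positive arrays, at 7.03, 7.48 and 7.17 on the GFP-negative arrays and at 7.63, 8.70 and 7.94 on the control arrays. The GFP-negative arrays lay below the controls, and GFP-positive arrays overlapped both. It differed by -0.87 ± 0.39 in GFP-negative cells (limma adjusted p = 0.876; -0.56 without control 2), and its second probe set by -0.63.

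The helicases Ercc2 and Ercc3, which open the lesion, were at 6.34 ± 0.27, 6.26 ± 0.21 and 6.36 ± 0.15 and at 5.96 ± 0.39, 5.59 ± 0.47 and 5.85 ± 0.51 in GFP-positive, GFP-negative and control cells (SD, n = 3 each). The damage sensors Ddb1 and Ddb2 were at 8.04 ± 0.23, 7.93 ± 0.25 and 8.05 ± 0.22 and at 8.46 ± 0.34, 8.62 ± 0.016 and 8.63 ± 0.39. For Ddb1 the 95% interval of the difference from controls was -0.62 to 0.60 in GFP-positive and -0.73 to 0.49 in GFP-negative cells, so a 2-fold difference lay outside both. Xpa, which verifies the lesion, was at 6.29 ± 0.077, 6.00 ± 0.87 and 6.19 ± 1.25.

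Polb, the polymerase that fills the gap in base excision repair, had the smallest p of the repair genes between the fractions. It stood at 4.99, 6.59 and 6.18 on the GFP-positive arrays, at 6.87, 8.88 and 9.30 on the GFP-negative arrays and at 6.75, 6.75 and 6.20 on the control arrays. Every GFP-negative array lay above every other array, GFP-negative 1 by a small margin. The difference was -2.43 ± 0.63 between GFP-positive and GFP-negative cells (limma adjusted p = 0.9998), 1.78 ± 0.63 in GFP-negative cells against controls (limma adjusted p = 0.832) and -0.64 ± 0.63 in GFP-positive cells against controls. Without control 3 and GFP-positive 2 the first was -2.76 and the second 1.60. The brightest Polb probe set had a mean of 6.95 over the 9 arrays and the next 6.87, so its high GFP-negative values entered its choice. That next probe set was at 6.38, 7.11 and 7.01 on the GFP-positive arrays and at 6.81, 7.48 and 7.42 on the GFP-negative arrays. On the control arrays it was at 6.51, 6.96 and 6.19. In order of brightness, the other 3 Polb probe sets differed by -0.40, -0.50 and 0.41 between the fractions. In GFP-negative cells against controls they differed by 0.68, -0.45 and -0.49, where 2 of the 3 had the opposite sign to the brightest. With all 4 probe sets averaged, the brightest included, these differences were -0.73 and 0.38. Polb (lower), Fancc and Xpc (higher) were the 3 of 40 repair genes whose arrays did not overlap between the fractions, against 6.40% of all genes (3.96% higher and 2.44% lower).

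Parp1, the enzyme that marks strand breaks with ADP-ribose chains, was at 8.46, 8.07 and 9.08 on the GFP-positive arrays, at 9.26, 8.88 and 8.87 on the GFP-negative arrays and at 8.44, 8.27 and 7.67 on the control arrays. All GFP-negative arrays lay above all controls. It differed from controls by 0.87 ± 0.34 in GFP-negative cells (limma adjusted p = 0.862; 0.65 without control 3) and 0.41 ± 0.34 in GFP-positive cells. Its other probe sets had the same sign, at 0.72, 0.44 and 1.72 in GFP-negative and 0.74, 1.05 and 0.45 in GFP-positive cells. Polb and Parp1 (higher) and Xrcc4, Xrcc5, Xpc, Ercc1 and Fancg (lower) were the 7 of 40 repair genes whose GFP-negative and control arrays did not overlap, against 11.4% of all genes (4.94% higher and 6.47% lower).

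Msh6, which recognises mismatches, was at 8.84, 9.31 and 9.54 on the GFP-positive arrays, at 9.34, 10.05 and 9.80 on the GFP-negative arrays and at 9.74, 9.49 and 9.64 on the control arrays, and the groups overlapped. It differed between GFP-positive and GFP-negative cells by -0.50 ± 0.30. Pms2, which nicks the strand to be corrected, was at 7.73 ± 0.78, 7.47 ± 0.11 and 7.03 ± 0.51 in GFP-positive, GFP-negative and control cells (SD, n = 3 each). Ogg1, the glycosylase for oxidised guanine, was at 6.28 ± 0.37, 6.32 ± 0.095 and 6.39 ± 0.41, and Apex1, which cuts at the base-free site, at 9.79 ± 0.83, 10.11 ± 0.40 and 9.92 ± 0.25. Xrcc1, the scaffold of the branch, was at 7.46, 5.55 and 7.80 on the GFP-positive arrays, at 7.96, 7.61 and 7.35 on the GFP-negative arrays and at 7.84, 7.61 and 6.35 on the control arrays, so its 2 lowest values fell on GFP-positive 2 and control 3.

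**Figure D4:**
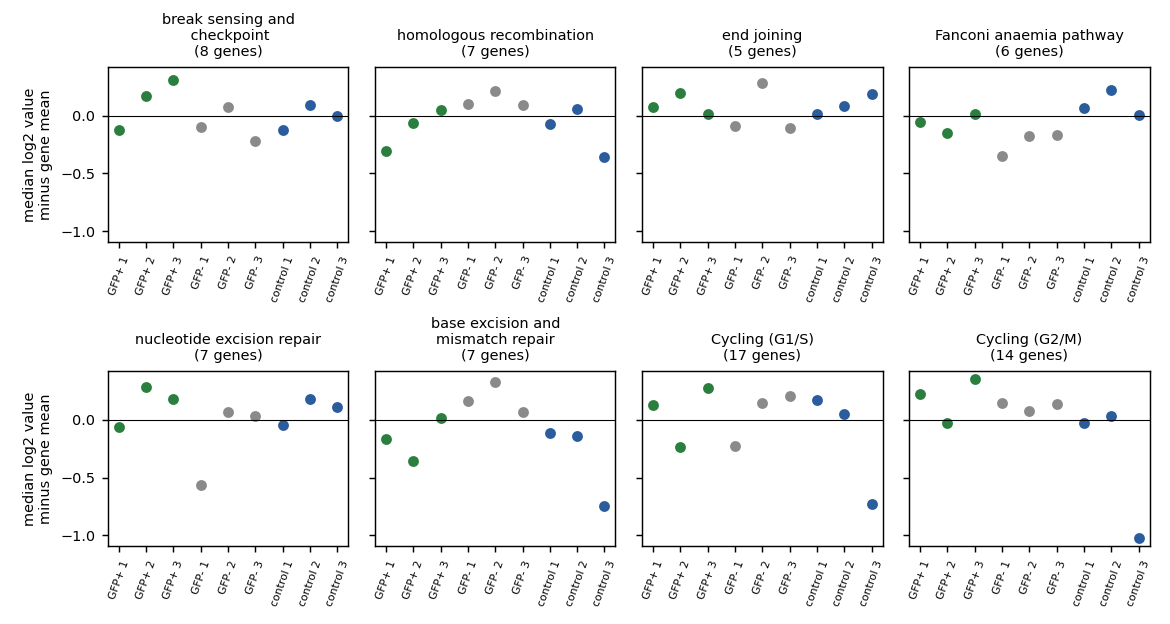
Median over the genes of each role of the log2 RMA value minus the gene's own mean, on each GFP-positive, GFP-negative and control array, with G1/S and G2/M cycling genes beside them. Base excision and mismatch repair and both cycling lists are lowest on control 3 (-0.74, -0.73 and -1.03).

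Of 97 other repair genes 86 had a probe set and 83 were tested, and none passed in any comparison by limma. At an unadjusted p under 0.05, 1 was higher and 2 lower in GFP-positive cells than in controls, against 3.30% and 3.19% of all genes, and 2 were higher and 2 lower in GFP-negative cells, against 2.83% and 2.74%. There were 0 between the fractions, against 2.55% of all genes. Median differences were -0.016, 0.073 and -0.018. The smallest p in GFP-positive cells against controls belonged to the flap nuclease Fen1 (0.62 ± 0.24), the glycosylase Mpg (-0.83 ± 0.35), the demethylase Alkbh3 (-0.85 ± 0.36) and Faap24 (1.36 ± 0.70), with limma adjusted p from 0.72 to 0.802. In GFP-negative cells against controls it belonged to the mismatch gene Mlh3 (-1.17 ± 0.36), the end-cleaning enzyme Aptx (-1.45 ± 0.54), the polymerase Polq (0.87 ± 0.33) and the helicase Brip1 (2.14 ± 0.92), with limma adjusted p from 0.761 to 0.876. Between GFP-positive and GFP-negative cells it belonged to the nuclease Exo1 (-0.78 ± 0.36), Mlh3 (0.72 ± 0.36), the clamp subunit Hus1 (0.95 ± 0.53) and the nuclease scaffold Slx4 (0.66 ± 0.38), each with a limma adjusted p of 0.9998.

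Genes with several probe sets gave a second reading of each difference. Of the repair genes 26 had other probe sets above the filter, 40 in all. Over the 9 arrays these correlated with the brightest probe set of their gene with a median r of 0.11 (range -0.56 to 0.98), where the median over all 10028 such probe sets of genes tested was 0.20. These correlations share the arrays and their normalization. The difference had the sign of the brightest probe set for 21 of 40 in GFP-positive cells against controls (52.5%, and 57.1% over all genes), for 18 in GFP-negative cells against controls (45.0%, and 58.1%) and for 18 between the fractions (45.0%, and 54.3%).

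**Figure D5:**
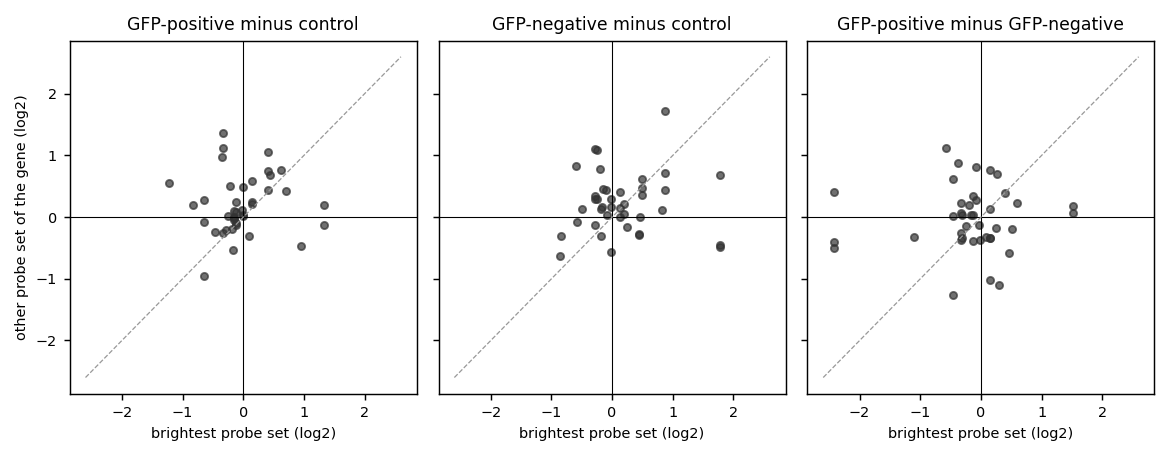
Difference in log2 RMA value of each of the 40 other probe sets above the filter (vertical axis) against that of the brightest probe set of the same repair gene (horizontal axis), for the 3 comparisons; the dashed line marks equal values. Signs match for 21, 18 and 18 of the 40 points.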

How the data were processed

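Total RNA of 9 sorted samples (3 GFP-positive, 3 GFP-negative, 3 control) was amplified with Nugen kits and measured on Affymetrix arrays, 1 sample each, per the labels' protocols. The authors deposited log2 values, and RMA is the tool named in the submitters' processing notes, with no version. Of 45101 probe sets, 34945 carried 1 gene in the platform annotation, of which 34741 had an Entrez number found in the RefSeq table.

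Each gene was read from its brightest probe set. Genes above the filter (the 40th percentile of probe set means, 4.03) numbered 12398 of 18193 and were fitted with limma 3.58.1 in R 4.3.3 (lmFit and eBayes on all 9 arrays, Benjamini-Hochberg over all genes, threshold 0.05). The members, lists and tests were chosen with earlier results of these data known. Shown array by array were the 6 members with the smallest p in each comparison, and Prkdc, Rad51c, Bard1, Fancg and Xrcc1, added after their values were seen. The members with the highest and lowest mean of each role were given by group, and of the wider list the 4 with the smallest p. Tested on simulated data for GFP-positive against control over 12398 genes, limma recovered 10% of 50 genes changed by 1 on the log2 scale, 62% of those changed by 2 and 88% of those changed by 3, with 9 false calls in all among the unchanged genes. Noise was drawn independently for each gene and array, so deviations shared by the genes of an array were not simulated. The recovered shares need not hold for the real arrays. With 3 arrays a group, exact permutation of 1 gene's values goes no lower than p = 0.1, and the number of arrays limits the precision. Alternatives varied the filter, the probe set rule, the variance prior, array weights, scaling, the arrays fitted, a replicate block and the threshold. Promoters are RefSeq's (GRCm38.p6). Figures were drawn with matplotlib 3.10.9.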

Additional observations from a re-analysis of the deposited data

How the results depend on the processing

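The counts of genes and of repair genes past the threshold were 0 by limma in every comparison under every setting tried, and also at an adjusted p under 0.1 with the other choices kept; the smallest adjusted p over all genes was 0.0523, with array weights, in GFP-positive cells against controls. Medians of the groups moved by more than the spread between replicates under some settings. When probe sets of a gene were averaged, the median of all repair genes was 0.0542 in GFP-positive and 0.0948 in GFP-negative cells against controls, that of end joining -0.238 in GFP-negative cells against controls and 0.352 between the fractions, and that of excision repair 0.0624 and -0.102. This setting left 38 repair genes tested, 4 of them in end joining. With array weights the homologous recombination median was -0.0643 in GFP-positive cells against controls, and the median of all repair genes -0.0556 between the fractions. Without control 3 and GFP-positive 2, chosen after the data were seen, the end joining median was 0.055 in GFP-positive cells against controls. Leaving out 1 array at a time gave, in GFP-positive cells against controls, -0.0679 to 0.33 for homologous recombination and -0.0757 to 0.0475 for all repair genes. In GFP-negative cells against controls it gave 0.0349 to 0.363 for homologous recombination, -0.271 to 0.144 for end joining and -0.0386 to 0.144 for all repair genes. Between the fractions it gave -0.242 to 0.113 for homologous recombination, -0.0137 to 0.145 for all repair genes and -0.0885 to 0.132 for excision repair. The cause was not tested. With the replicate block the median of all repair genes was -0.0613, -0.0131 and 0.0549 in the 3 comparisons, as without it, and 0 genes passed. Arrays of equal number did not deviate from their group means together in every pair (correlations from -0.29 to 0.0994), so the numbers were not taken as pairs.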

Other observations

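The 7 repair genes with E2F letters in a promoter window had a median difference from controls of 0.36 in GFP-positive cells, with 4 of 7 higher, and of 0.11 in GFP-negative cells, with 6 of 7 higher. The 25 tested repair genes whose windows held no E2F letters had medians of -0.12, with 8 of 25 higher, and -0.078, with 11 of 25 higher. Over all genes tested 47.2% and 46.5% were higher in these comparisons. The median of 0.36 was the difference of Bard1 (0.36 ± 0.80), which was at 5.35, 8.03 and 6.25 on the GFP-positive arrays. On the control arrays Bard1 was at 6.28, 6.25 and 6.02, so its difference rested on GFP-positive 2. The medians of these groups were not refitted with single arrays left out. Of the 7 genes none passed the limma threshold, and all 7 groups of arrays overlapped those of the controls in GFP-positive cells, while Fancg alone did not overlap in GFP-negative cells, where it was lower. These genes were grouped after their promoters were searched, and no test was made.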
